A study of Rattus norvegicus with 8 samples.

Results

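MHC class II molecules present peptides on the cell surface, and the invariant chain escorts them there. The 4 genes described here are RT1-Da, RT1-Ba, RT1-DMa and Cd74, out of 14217 rat genes named on the array. All probe sets whose only gene symbol in the platform's probe table was 1 of these were taken. They numbered 7: 1 each for RT1-Da, RT1-DMa and Cd74 and 4 for RT1-Ba. RNA of whole testes from adult Sprague-Dawley rats was hybridised to 8 one-colour oligonucleotide arrays, 1 per sample. The 3 control arrays held testes of untreated rats, 2 arrays held testes taken 8 h after a single gavage dose of Adjudin (50 mg/kg body weight), and 3 arrays held testes taken 4 d after that dose. Adjudin is known to loosen developing germ cells from Sertoli cells. No vehicle group and no age beyond adult is named. Whether every array had its own rat is not stated, and the p-values rest on array-to-array spread alone, part of which may be technical. The genes were chosen by their higher signals at 4 d than in the controls, known from earlier results of these arrays. Their differences between 4 d and the other groups are therefore given as a description, with no test.

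In rats, RT1-D and RT1-B are the classical class II molecules, each a pair of an alpha chain (RT1-Da, RT1-Ba) and a beta chain (RT1-Db1, RT1-Bb). Newly made pairs are held by the invariant chain, encoded by Cd74, which fills the peptide groove and sends the complex to endosomes. Proteases there cut the invariant chain down to a short fragment, and the RT1-DM molecule (RT1-DMa with RT1-DMb) helps to exchange that fragment for an antigen peptide. The RT1-B chains and the RT1-D beta chain are known to differ greatly in sequence between rats of different MHC haplotypes, whereas RT1-Da, RT1-DM and Cd74 vary little, and Sprague-Dawley is an outbred stock. Class II transcription depends on the coactivator CIITA, which acts on RFX and NF-Y factors bound to the X and Y boxes of the promoters. In the testis, class II is known mainly from macrophages of the interstitium. RefSeq places RT1-Da, RT1-Ba and RT1-DMa in the class II region of chromosome 20 and Cd74 on chromosome 18.

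The promoter stretches that hold these boxes are shown because the RFX, NF-Y and CIITA factors are known to act on all 4 genes. They come from RefSeq (build GRCr8), lie within the 250 bases before the annotated start, and run 5′ to 3′ on the gene's strand. Capitals mark matches to the motifs searched on both strands: a relaxed X box consensus, TGANGTCA for the neighbouring X2 box, TGATTGG for the Y box and, contained in it, ATTGG for the Y box core (CCAAT on the other strand).
RT1-Da, chr20:4515319-4515382, plus strand: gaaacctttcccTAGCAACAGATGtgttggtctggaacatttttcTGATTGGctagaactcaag
RT1-Ba, chr20:4576976-4577030, plus strand: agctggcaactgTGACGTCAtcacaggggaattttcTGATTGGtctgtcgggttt
RT1-DMa, chr20:4712383-4712436, minus strand: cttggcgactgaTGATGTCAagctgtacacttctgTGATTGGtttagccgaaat
Cd74, chr18:56526976-56527033, plus strand: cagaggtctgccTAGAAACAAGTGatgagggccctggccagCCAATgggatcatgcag

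RT1-Da and Cd74 held a match to the X box, RT1-Ba and RT1-DMa to the X2 box, and a Y box or its core followed in each, with 15 to 21 bases between the matches. The pair lay within 101 bases of the start in the RT1 genes and 230 to 173 bases before it in Cd74, including the flanks shown. Over 27457 RefSeq promoters of the same length, 1.61% held the X box motif, 8.8% the X2 motif, 6.71% the Y box and 34.3% its core. The full Y box together with an X or X2 match, in any order and spacing, was held by 0.812%. Cd74 held only the core, so this last share does not cover its pair. The motifs were chosen with these promoters in view, so the matches are a description and not sites shown to be used. Among neighbouring class II genes, RT1-Db1, RT1-Db2, RT1-Bb and RT1-DOb held an X and a Y box match, while RT1-DOa and RT1-Ha held a Y box and no X or X2 match.

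**Figure D1:**
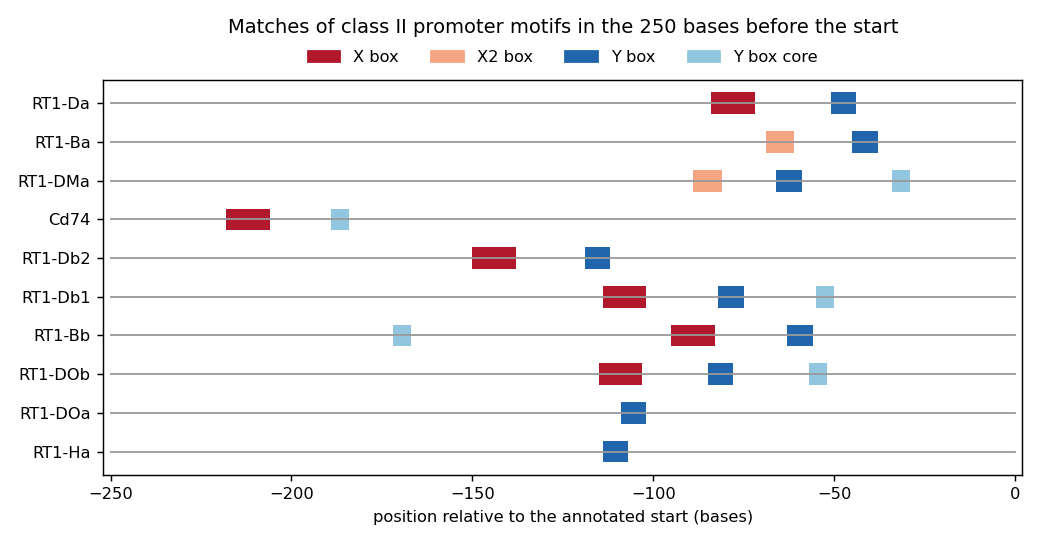
Each line is the 250 bases before the annotated start of a class II gene or Cd74, with the position in bases on the horizontal axis, and coloured blocks are motif matches on either strand. In RT1-Da, RT1-Ba and RT1-DMa the Y box follows an X or X2 match, and in Cd74 the pair lies farther from the start.

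Signals are MAS 5.0 values scaled so that the 2% trimmed mean of every array was 500, and a signal of 100 was the minimum a probe set had to reach on 2 or more arrays to be tested. All 7 probe sets passed this minimum, as did 19785 of 31042 non-control probe sets. The arrays were hybridised in 3 runs. Control 1 shared run 1 with 8 h 1 and 4 d 1, control 2 shared run 2 with 4 d 2 alone, and control 3 shared run 3 with 8 h 2 and 4 d 3. The settings of the run 2 arrays named the sample type as mouse and a fluidics protocol of version 4. Those of the other 6 arrays named rat and version 5. On the run 3 arrays 51.6% to 53.9% of probe sets reached a signal of 100, against 57.6% to 59.0% on the arrays of runs 1 and 2. Arrays of 1 group correlated at r of 0.954 to 0.978 across probe sets, run 2 included. Germ cell genes were bright on every array, as a testis sample should show: Prm1, a protamine, had signals of at least 27831 on all 8. In whole tissue, more cells of a type and more RNA per cell cannot be told apart.

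RT1-Da, Cd74 and RT1-DMa were all higher 4 d after Adjudin than in untreated testes, on every array, and were near the control level at 8 h. RT1-Da, the alpha chain of the RT1-D molecule, had signals of 368, 473 and 510.2 in the controls, 556 and 363 at 8 h, and 2097, 2148 and 3173 at 4 d. The 3 arrays at 4 d lay far above the other 5, which overlapped with each other. The mean went from 450.3 ± 74.0 to 2473 ± 607 (SD, n = 3 each), a 5.14-fold difference on the log2(signal + 32) scale used throughout (log2 2.36, SE 0.22). Within the 3 runs the log2 difference at 4 d was 2.41, 2.11 and 2.56.

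Cd74, the invariant chain, followed the same course. Its signals were 757, 962 and 848 in the controls, 745 and 805 at 8 h, and 2954, 3046 and 3694 at 4 d. The 4 d arrays stood apart from all others, and the replicates lay close together. The mean of 856 ± 103 in the controls and 3231 ± 403 at 4 d (SD, n = 3 each) differed 3.67-fold (log2 1.88, SE 0.14), with 1.92, 1.63 and 2.08 in the runs.

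RT1-DMa, a chain of the peptide editor, was dimmer and differed less. Its signals were 138, 162 and 73.8 in the controls, 146 and 149 at 8 h, and 247, 313 and 277 at 4 d. Control 3 was the lowest of all arrays and lay under the signal minimum of 100. The means of 124 ± 45.4 and 279 ± 32.8 (SD, n = 3 each) differed 2.05-fold (log2 1.03, SE 0.25). The difference was 0.72 and 0.83 in runs 1 and 2 and 1.55 in run 3, the run of the low control.

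RT1-Ba, the alpha chain of RT1-B, depended on which of its 4 probe sets was read. The brightest, 1370822_at, gave 305, 275 and 144 in the controls, 279 and 266 at 8 h, and 806, 397 and 1198 at 4 d. Here too the 4 d arrays lay above the rest, but they spread 3.02-fold among themselves. Its log2 difference at 4 d was 1.53 (SE 0.37), with 1.31, 0.48 and 2.81 in the runs. Probe set 1377334_at gave 29.0, 84.0 and 365 in the controls, 144 and 12.2 at 8 h, and 208, 712 and 3.40 at 4 d. Its lowest and its highest signal both fell in the 4 d group, and the log2 difference was 0.39 with an SE of 1.05. Without control 1, without 4 d 2 and without run 2 it was -0.22, -0.61 and -0.76.

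The remaining RT1-Ba probe sets were lower or mixed. Probe set 1381593_x_at gave 202, 228 and 62.4 in the controls, 115 and 31.2 at 8 h, and 53.4, 35.0 and 48.4 at 4 d. All 4 d arrays lay below all controls (log2 -1.21, SE 0.44), opposite to 1370822_at. Probe set 1392334_at gave 234, 272 and 71.0, then 62.4 and 41.2, then 208, 144 and 33.2, and its groups overlapped (log2 -0.53, SE 0.53). Without 4 d 3 that difference was 0.019. The platform table derives 1381593_x_at and 1392334_at from the same accession, so these are not independent of each other. Of the 7 probe sets, 4 had every 4 d array above every control, as did 17.5% of all probe sets tested, and 1 had every 4 d array below, against 11.8%. Of the 4 genes by their brightest probe set, all 4 had every 4 d array above every control, as did 19.7% of all genes tested. The choice of genes used this contrast, so nothing is read from these shares.

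**Figure D2:**
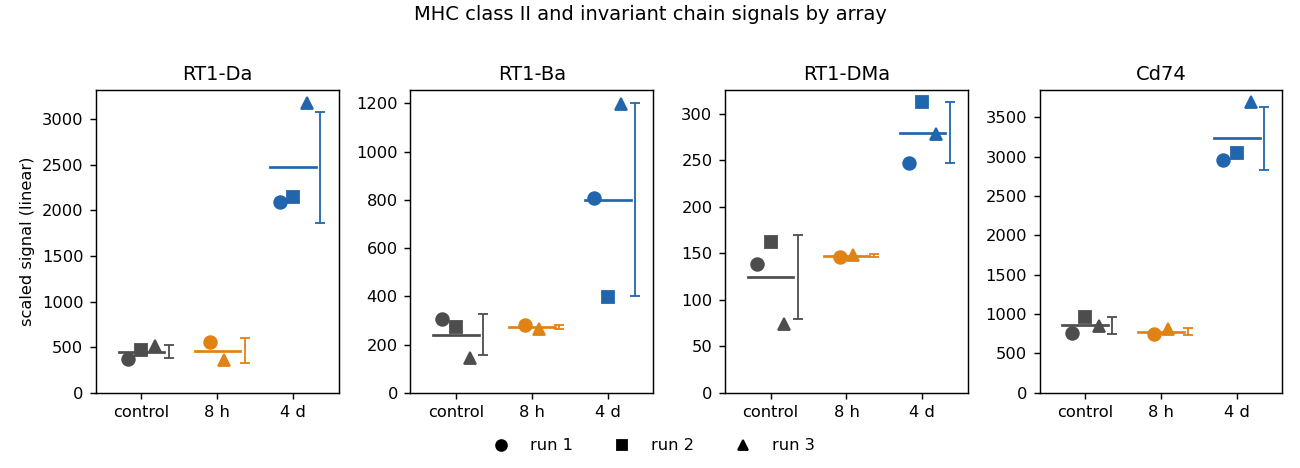
Points are scaled signals (linear axes from 0) of the brightest probe set of each gene, horizontal lines are group means and bars are the SD (n = 3, 2 and 3 arrays). All 4 d points lie above all control and 8 h points in each panel, with the widest spread for RT1-Ba (397 to 1198).

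Taking each gene by its brightest probe set, the median log2 difference of the 4 genes at 4 d was 1.71, beside a median of 0.031 over the 11225 genes tested. Without run 2 it was 2.03. RT1-Ba entered this median by 1370822_at, while its other probe sets had log2 differences of 0.39, -1.21 and -0.53 at 4 d. The median therefore depends on the probe set read for that gene.

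The comparison of 8 h with control asked whether the genes had already moved early. None of the 7 probe sets passed at 8 h: limma gave 0 calls at an adjusted p below 0.05 and 0 at an unadjusted p below 0.05. Of all probe sets tested, 0.0657% were called higher and 0.00% lower, and 773 of the 19785 (3.91%) had an unadjusted p below 0.05. This contrast did not choose the genes but shares the control arrays with the one that did. The log2 differences were 0.012 (SE 0.24) for RT1-Da, -0.13 (SE 0.16) for Cd74, 0.24 (SE 0.28) for RT1-DMa and 0.21 (SE 0.41) for RT1-Ba by 1370822_at. The standard errors leave room for modest differences in either direction. The pairs of 8 h and control arrays in run 1 and run 3 gave 0.56 and -0.46 for RT1-Da, and -0.023 and -0.072 for Cd74. RT1-Ba by 1392334_at came nearest to a call (log2 -1.29, SE 0.59, limma unadjusted p = 0.0538), and passed only with the title numbers as a block, which do not follow the runs at 8 h (log2 -1.81, adjusted p = 0.0383 in limma).

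At 4 d against 8 h the differences were close to those against control, since the 8 h arrays lay at the control level. They were a log2 of 2.35 (SE 0.24) for RT1-Da, 2.01 (SE 0.16) for Cd74, 1.32 (SE 0.41) for RT1-Ba by 1370822_at and 0.79 (SE 0.28) for RT1-DMa. The 2 contrasts share the 4 d arrays.

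The other chains were not part of the chosen set and were tested, though their list was also drawn up with earlier results of these arrays known. Of the 7 other class II chain genes listed, 3 had a probe set (RT1-Bb, RT1-Db1 and RT1-DMb), and limma called 0 higher and 0 lower at 4 d, with 0 at an unadjusted p below 0.05. RT1-DMb, the partner of RT1-DMa, had signals of 202, 208 and 205 in the controls, 290.5 and 201 at 8 h, and 249, 334 and 277 at 4 d. Every 4 d array lay above every control, but not above 8 h 1, and the log2 difference of 0.42 (SE 0.19) had an adjusted p of 0.228.

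The beta chains showed a different picture: signals that were high on some arrays and near background on others of the same group. RT1-Bb by 1371033_at gave 1522, 1432 and 18.8 in the controls, 89.6 and 1526 at 8 h, and 2101, 72.4 and 5103 at 4 d. Control 3, 8 h 1 and 4 d 2 were under 100, while the other 5 arrays were at 1432 or more. RT1-Db1 by 1370382_at was low on the same 3 arrays, with 366, 319.9 and 30.4 in the controls, 46.0 and 486 at 8 h, and 461, 44.4 and 1223 at 4 d. These 3 arrays belong to 3 groups and to 3 different runs.

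The second RT1-Bb probe set, 1371065_at, was low on control 3 as well, but otherwise only on 4 d 3. It gave 1762, 1414 and 174 in the controls, 2629.8 and 1334 at 8 h, and 1819, 1885 and 22.2 at 4 d, so that 4 d 3 was highest by one probe set and lowest by the other. The RT1-Ba probe set 1377334_at also had its lowest signal on 4 d 3, and its highest on 4 d 2 and control 3, where RT1-Bb by 1371033_at was low. The second RT1-Db1 probe set, 1370383_s_at, kept a signal on all arrays: 1019.8, 908 and 179 in the controls, 397 and 824 at 8 h, and 1396, 564 and 1855 at 4 d. Its log2 difference at 4 d was 0.98 (SE 0.61, adjusted p = 0.396 in limma). That of RT1-Bb was -0.49 by 1371065_at (SE 1.28, adjusted p = 0.879) and 1.10 by 1371033_at (SE 1.65, adjusted p = 0.770), and the former was positive without control 1 (0.081) and without 4 d 3 (1.22).

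This spread within groups was extreme for the array. The residual SD of log2 signals within groups had a median of 0.26 over the 19785 probe sets tested. RT1-Bb by 1371033_at had the largest SD of all (2.83), RT1-Bb by 1371065_at ranked 3 (2.18), RT1-Db1 by 1370382_at ranked 6 (1.83) and RT1-Ba by 1377334_at ranked 8 (1.77). RT1-Da (0.31), RT1-DMa (0.31), RT1-DMb (0.19) and Cd74 (0.16) lay in the ordinary range, at ranks of 7316, 7608, 13828 and 16109. Among the 8358 probe sets with a control signal of at least 500, the highest control signal exceeded the lowest by a median of 1.32-fold. It did so by 81.0-fold for RT1-Bb by 1371033_at and by 10.1-fold for 1371065_at, and only 9 of these probe sets (0.108%) reached 8-fold. The probe sequences and the alleles of these animals were not examined, and their part in the spread was not tested.

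**Figure D3:**
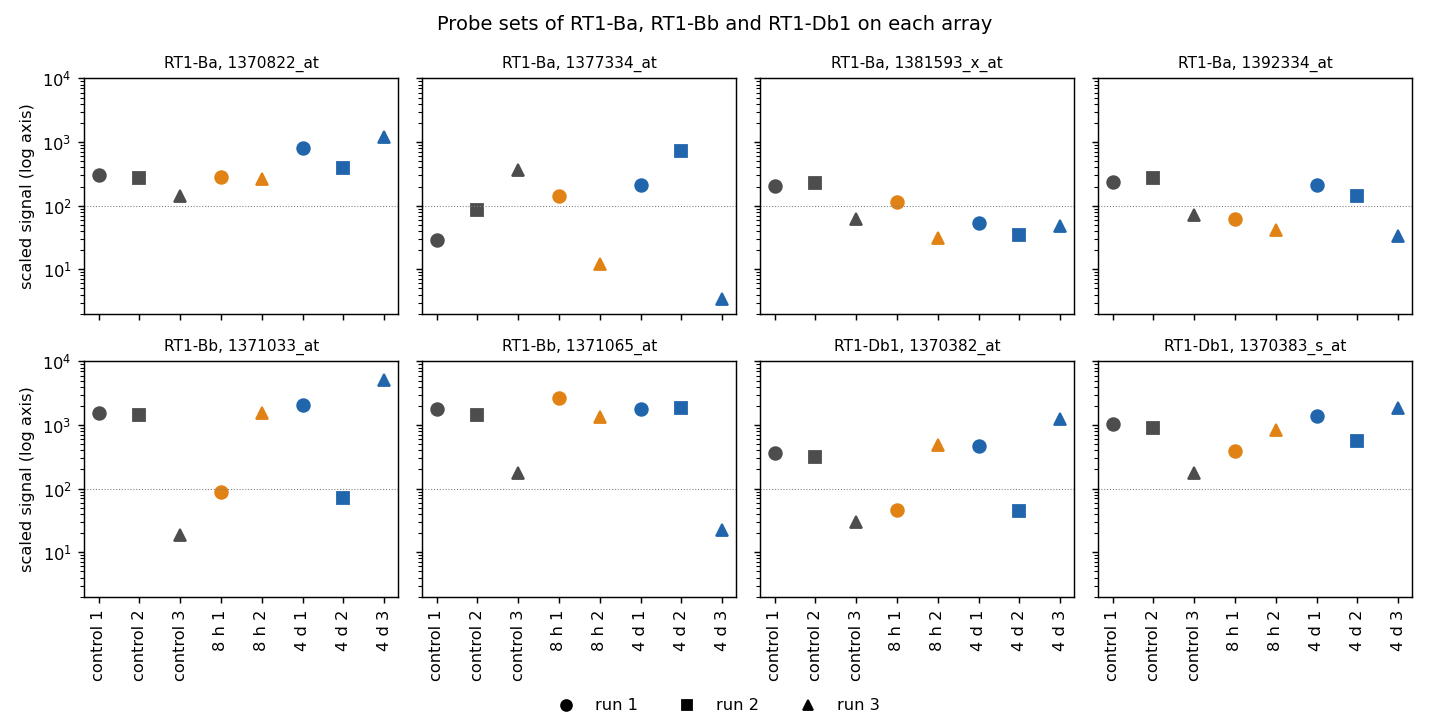
Scaled signal (log axis) of each RT1-Ba, RT1-Bb and RT1-Db1 probe set on every array, with colours for the groups and shapes for the runs; the dotted line marks the minimum of 100. RT1-Bb by 1371033_at and RT1-Db1 by 1370382_at fall below it on control 3, 8 h 1 and 4 d 2, and RT1-Bb by 1371065_at on 4 d 3.

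**Figure D4:**
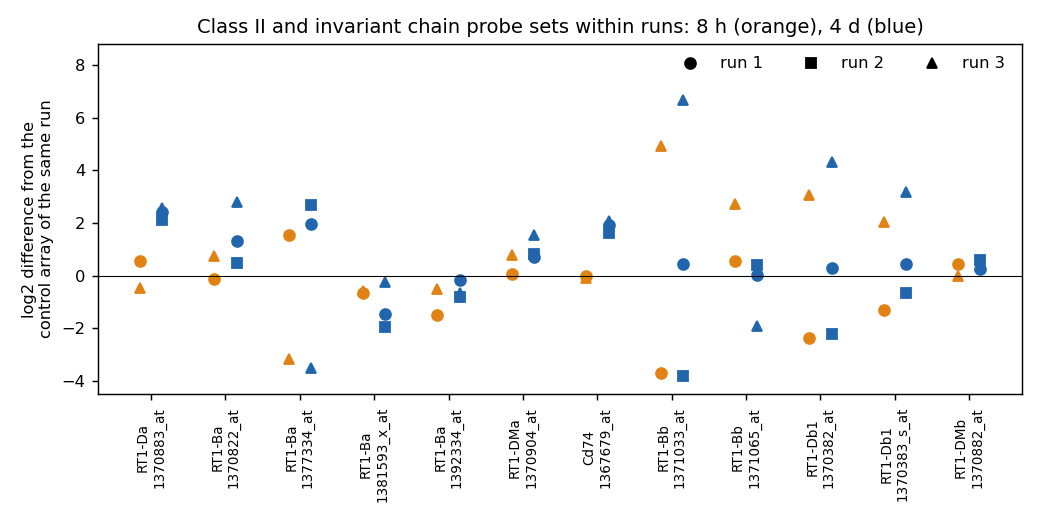
Log2 difference of each 8 h and 4 d array from the control array of its own run, for all class II chain and Cd74 probe sets, with shapes for the runs. RT1-Da and Cd74 lie between 1.63 and 2.56 at 4 d in all 3 runs, while RT1-Bb by 1371033_at ranges from -3.81 to 6.66.

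The steps around the class II molecule were followed in 8 lists with 69 other genes, of which 60 had a probe set and 49 were tested. These lists too were drawn up with earlier results of these arrays known, which limits what their counts can show. At 4 d 18 of the 49 rose and 0 fell in limma (26 and 0 at an unadjusted p below 0.05), where 7.63% of all genes tested rose and 5.19% fell (16.1% and 11.3% unadjusted). Their median log2 difference was 0.45. Without run 2, 9 rose, where 2.26% of all genes rose. Fitted with a term for the run, 25 rose and 2 fell, where 15.3% of all genes rose and 11.9% fell. At 8 h 0 of the 49 passed by their brightest probe set, with 6 higher and 0 lower at an unadjusted p below 0.05, against 0.0802% of all genes called higher and 0.00% lower. With that term 2 rose at 8 h, where 0.321% of all genes did. At 4 d against 8 h, 14 of the 49 were higher and 0 lower in limma, against 4.46% and 3.58% of all genes.

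The transcription factors of class II promoters showed no call. Of 11 tested, 0 passed at 4 d in limma, with 1 at an unadjusted p below 0.05, and the median log2 difference was 0.12. Ciita, the coactivator that sets class II transcription, was dim, with signals of 98.8, 65.0 and 44.6 in the controls, 131 and 16.2 at 8 h, and 106, 119 and 41.0 at 4 d. These values overlapped between groups (log2 0.21, SE 0.48, adjusted p = 0.856 in limma), near a level where the array measures little. Rfx5, an X box factor, had the smallest p (log2 0.44, SE 0.15, adjusted p = 0.105). In the fit with a run term Rfx5 rose (adjusted p = 0.0262), while Rfxank (log2 -0.63, adjusted p = 0.0452) and Creb1 by its brightest probe set (log2 -0.39, adjusted p = 0.0212) fell.

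Genes of the interferon gamma response chain rose in part. Of 7 tested, 4 rose and 0 fell, with a median of 0.95, and 2 rose without run 2 (Ifngr2 and Irf1). Irf1, a transcription factor induced by interferon gamma, had signals of 148, 171 and 138 in the controls, 256 and 372 at 8 h, and 718, 568 and 640.0 at 4 d. The 3 groups did not overlap, with 8 h in between. Irf1 rose at 4 d by a log2 of 1.87 (SE 0.18, adjusted p = 0.000378 in limma), while the 0.89 at 8 h did not pass (adjusted p = 0.359). Ifngr2, a chain of the interferon gamma receptor, rose by 1.22 (adjusted p = 0.00155), and the kinase Jak2 by 1.01 (adjusted p = 0.0150), though without control 2, 4 d 1 or 4 d 2 the p of Jak2 was up to 0.0763. Irf2 passed narrowly (0.95, adjusted p = 0.0481) and no longer did without any single control or 4 d array (up to 0.183). Interferon gamma itself (Ifng) and Socs1, an inhibitor of its signalling, were below 100 on all 8 arrays and were not tested.

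The endosomal enzymes that prepare the class II groove included some of the larger rises. Of 11 tested, 6 rose and 0 fell (median 1.03), and 4 rose without run 2. Ctsl, a cathepsin that cuts the invariant chain in some tissues and is also a known Sertoli cell product, went from 4169 ± 556 to 15536 ± 2875 (SD, n = 3 each), a log2 of 1.88 (adjusted p = 0.000327 in limma). Lgmn, an endosomal endopeptidase, rose by 1.63 (adjusted p = 0.000204), Ctsb by 1.54 (adjusted p = 0.000240), and Ctsd by 1.17 (adjusted p = 0.000618). Ifi30, a reductase that opens antigens for class II, had signals of 325, 424 and 522 in the controls, 360.1 and 453 at 8 h, and 967, 1301 and 1684 at 4 d. Only its 4 d arrays stood apart (log2 1.55, SE 0.23, adjusted p = 0.00297, or 0.0517 without run 2). Ctss, the protease best known for the last cut of the invariant chain, rose by 0.87 (adjusted p = 0.0137), which became 0.164 without run 2 and up to 0.0560 without control 2 or 4 d 2. At 8 h Ctsl by its brightest probe set passed with the run as a block (log2 0.51, adjusted p = 0.0335) but not without it. Its dimmer probe set had signals of 696, 763 and 765 in the controls and 1610 and 1904 at 8 h, and passed without a block (log2 1.21, SE 0.14, adjusted p = 0.0112 in limma).

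Of 5 genes of class II traffic tested, the tetraspanins Cd9 (log2 1.53, adjusted p = 0.00499 in limma, or 0.0658 without run 2) and Cd63 (1.26, adjusted p = 0.000812) rose and 0 fell. Marchf1, the ubiquitin ligase that removes class II from the surface, was below 100 on all arrays. Of the 4 genes tested among MIF ligands and receptor partners of surface Cd74, 0 passed in limma and 0 at an unadjusted p below 0.05. Mif, the ligand, had a log2 difference of -0.22 (SE 0.21), and Ackr3 had the smallest p (0.40, adjusted p = 0.376).

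The molecules by which antigen-presenting cells engage T cells were mostly too dim to test. Cd80, Cd86 and Cd40 were below 100 on all arrays. Icam1, an adhesion ligand for leukocytes, was measured at 53.0, 89.97 and 120 in the controls, 246 and 362 at 8 h, and 379, 294 and 466 at 4 d. The treated arrays all lay above the controls at both times. It rose at 4 d (log2 1.80, SE 0.27, adjusted p = 0.00306 in limma), and at 8 h the log2 of 1.51 did not pass (adjusted p = 0.214 in limma) but did in the fit with a run term (adjusted p = 0.0312). Of 6 class I processing genes tested, 5 rose and 0 fell at 4 d (median 0.82), and only B2m, the class I light chain, did without run 2. B2m rose by a log2 of 1.17 (adjusted p = 0.00300), the immunoproteasome subunits Psmb9 and Psmb8 by 0.99 and 0.79, and Tapbp, a peptide-loading chaperone, by 0.84 (adjusted p = 0.0390, up to 0.150 with 1 array left out).

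**Figure D5:**
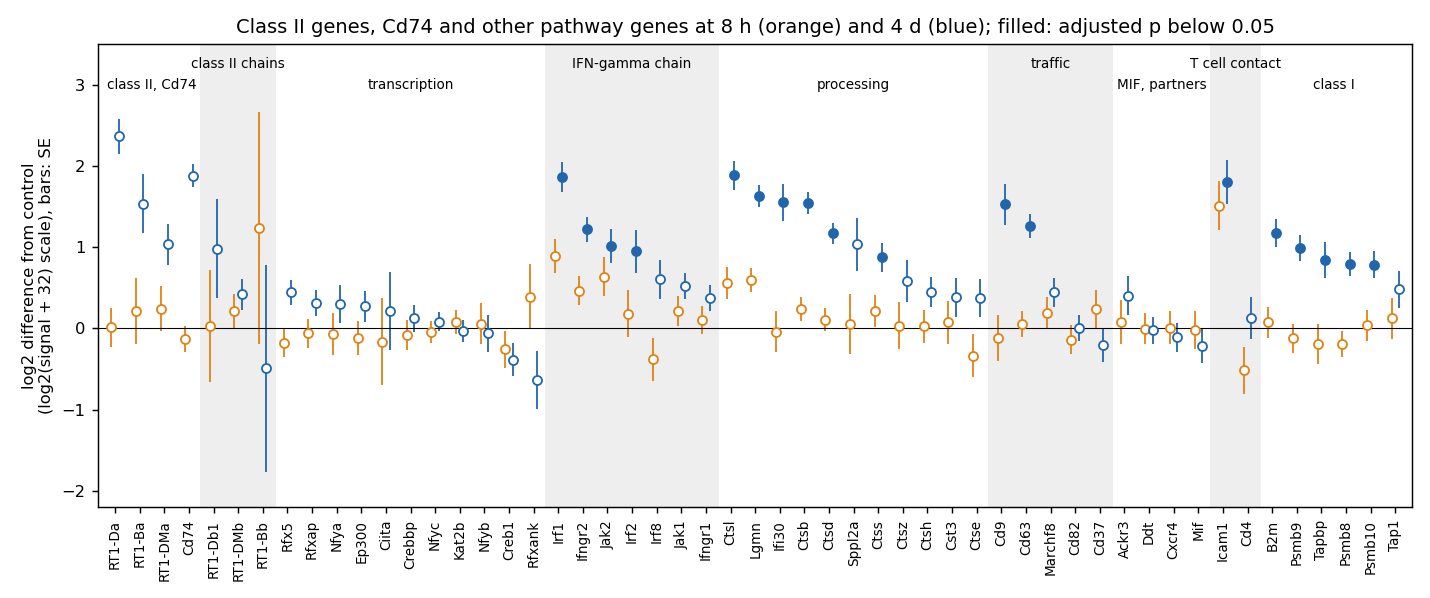
Log2 difference from control at 8 h (orange) and 4 d (blue) for the 4 genes and the 49 tested pathway genes, with standard errors as bars and filled points for an adjusted p below 0.05 in limma. Filled points occur at 4 d only; RT1-Da, RT1-Ba, RT1-DMa and Cd74 were not tested at 4 d and are drawn open.

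Macrophage markers, from cells that carry class II, mostly rose or did not pass. Of 16 macrophage and myeloid markers tested, 8 rose and 2 fell at 4 d in limma (median log2 1.10), where 7.63% of all genes tested rose and 5.19% fell. Without run 2, 4 rose and 0 fell, where 2.26% of all genes rose and 1.18% fell. With the run term 12 rose and 2 fell, where 15.3% of all genes rose and 11.9% fell. Lyz2, a lysozyme, rose by a log2 of 1.81, C1qa, a complement component made by macrophages, by 1.502, and Cd68, a lysosomal macrophage protein, by 1.26 (adjusted p = 0.000701, 0.00164 and 0.0130). Without 4 d 1 the adjusted p of Cd68 was 0.0614. Aif1 by its brightest probe set (-0.47, adjusted p = 0.0415, up to 0.174 with 1 array left out) and Adgre1, the F4/80 antigen (-0.74, adjusted p = 0.00855, or 0.0542 without run 2), fell. The dimmer Aif1 probe set had a log2 difference of -0.016 (adjusted p = 0.988). Summed over the 17 markers with a probe set, signals ranged from 11453 to 12254 on control arrays, from 11340.1 to 12563 on 8 h arrays and from 13672 to 15449 on 4 d arrays, and Itgam was below 100 on all arrays. Aif1 alone made up 6430 to 7530 of the control sums and 4492 to 5379 of those at 4 d. The other 16 markers summed to 4724 to 5172, then 5137 to 5466 and 9122 to 10070.3. The part of macrophage markers in the class II signals was not tested.

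Markers of other leukocytes were mostly dim. Of the dendritic cell markers 2 were tested and 0 passed in limma (1 at an unadjusted p below 0.05), with summed signals of 190.1 to 298 in the controls and 339 to 401 at 4 d, and Itgax, Flt3 and Clec9a were below 100 on all arrays. Of the B cell markers 3 were tested and 0 passed (1 at an unadjusted p below 0.05), with sums of 308 to 453 and 396 to 604, and Cd79b was below 100 throughout. Of the T and NK cell markers 2 were tested and 0 passed (0 unadjusted), with sums of 1728 to 2396 in the controls and 1512 to 1829 at 4 d. Lck alone made up most of these sums, so they say little about the other T and NK cell markers. Lck had signals of 1272, 1251 and 1890 in the controls, 918 and 1622 at 8 h, and 1253, 852 and 1155 at 4 d. Its log2 difference at 4 d was -0.42 (SE 0.24, adjusted p = 0.361 in limma). Cd3d and Cd3g were below 100 on all arrays. All 3 neutrophil markers with a probe set, S100a8, S100a9 and Csf3r, were below 100 on all arrays, as were 4 of 5 mast cell markers.

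Of the remaining cell types, germ cell markers had 2 of 7 lower (Prm2 and Akap4) and 6 with the run as a block, and 0 were higher. Of all genes tested, 7.63% rose and 5.19% fell at 4 d, or 15.3% and 11.9% with the run as a block. Sertoli markers had 1 higher (Cldn11, joined by Clu with a run term) and 1 lower (Rhox5) of 7, Leydig markers 1 higher of 6 (Hsd11b1, with Star and Insl3 added in the fit with a run term), and red cell markers 2 higher of 3 (Hbb and Alas2). Without run 2 only Hsd11b1 and Hbb of these passed, where 2.26% of all genes rose and 1.18% fell. Endothelial and peritubular markers had 0 of 6 and 0 of 5 passing in limma. At an unadjusted p below 0.05 they had 2 and 2, where 27.3% of all genes tested reached that level. With the run term 1 endothelial marker rose, and 1 peritubular marker rose and 1 fell. Their part was not tested either.

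Genes whose pattern over the 8 arrays was most like the mean profile of the 4 genes were sought among 11221 other genes. The closest were Gstm7, a glutathione transferase, and Pla2r1, a phospholipase receptor (r = 0.992 each), then St3gal2, a sialyltransferase (0.991), Dpt, a matrix protein (0.987), Selenoh, Tagln2 and Ctsc, a cathepsin that activates granule proteases (0.987 each), and Grsf1, an RNA-binding protein (0.986). Tagln2, an actin-binding protein, went from signals of 426, 520 and 379 in the controls to 2418, 2137 and 2599 at 4 d, with 606 and 559 at 8 h. The most opposite were Adgre1 (-0.990), Trim17, Deup1 (-0.989 each) and Adarb1 (-0.988). These correlations follow the group differences that the arrays share and are a description only.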

How the data were processed

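RNA from 0.1 g of testis per sample (5 µg of total RNA labelled) was measured on 8 arrays. The deposited table holds linear intensity values, 1 MAS 5.0 signal for each probe set, per the labels; the design text also names GeneSpring 7.2 with no step stated. Their 2% trimmed mean was 250 on every array. Per the array settings files deposited, which hold no measurement (unit other), runs were taken from the hybridisation day. Each array was scaled to a trimmed mean of 500, log2(signal + 32) was taken, so folds of dim genes are understated, and probe sets entered the test if 2 or more arrays had a signal of at least 100, leaving out 57 control probe sets. All 8 arrays were fitted with limma 3.58.1 in R 4.3.3 (lmFit, eBayes with a trend, no block, Benjamini-Hochberg over 19785 probe sets, threshold 0.05). The fit was tested on simulated data with independent noise on each array. That simulation held no shared run effect, so it cannot show how the fit behaves where arrays share a run. The number of arrays limits the precision, and detection calls were not used here.

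Each gene was read from its brightest probe set (by mean log2 signal) among those with 1 symbol (20826 probe sets; 436 had several, 9780 none). The genes described, the lists and the motifs were chosen with earlier results of these data known. Genes named were the chosen ones, all tested class II chains, and the 8 most and 4 least correlated genes. Each list added up to 4 (markers 3) with the largest called change at 4 d and 2 at 8 h, or else the smallest p. Cd83, Blnk, Esam, Des and Cd37 also met this rule but are not described above. None of them passed against control in limma without a run term. Adgre1 met this rule only by its correlation. Genes outside this rule that make up small counts or are dim (Ctsd, Ctss, Ciita, Rfxank, Mif, Aif1, Psmb10, Clu, Star, Insl3 and those below 100) were named after their values were seen.

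The titles number the replicates alike in each group. Deviations from group means correlated at 0.363, 0.353 and 0.507 between same-numbered control and 4 d arrays, which also share a run. These were paired by run for the within-run differences and in the fit with a run term. The main fit had no such term, so its p-values leave this sharing out. Of the 8 h arrays, 8 h 2 belongs to run 3. Alternatives were the pseudocount, the signal minimum, the scaling, the run or the title number as a block, fewer groups in the fit, averaging all probe sets per gene, and each array left out. Leaving out run 2 was added after seeing the data.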

Additional observations from a re-analysis of the deposited data

Results flagged for a closer look

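For 14 of the 49 other pathway genes tested the difference from control at 4 d exceeded that at 8 h, by the 4 d against 8 h term of the limma fit at an adjusted p below 0.05, and for 0 it was smaller. Of all genes tested, 4.46% were higher and 3.58% lower by this term. On the log2 scale the excess was 1.65 for Cd9, 1.59 for Ifi30, 1.32 for Ctsl, 1.30 for Ctsb, 1.20 for Cd63, 1.11 for Psmb9, 1.10 for B2m, 1.07 for Ctsd, 1.04 for Lgmn, 1.03 for Tapbp, 0.99 for Psmb8, 0.98 for Irf1, 0.75 for Ifngr2 and 0.74 for Psmb10. The adjusted p lay between 0.00189 for Ctsb and 0.0466 for Psmb10. The lists were chosen with earlier results known, and all 14 genes are among those that rose at 4 d against control, so the counts are not independent. Both differences share the control arrays, which cancel in this term. Groups of 2 and 3 arrays are too small for a search for single outlying arrays.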

How the results depend on the processing

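The median of the 4 genes at 4 d stayed between 1.48 and 1.93 with 1 array left out and was 2.03 without run 2. These medians take RT1-Ba by 1370822_at only. The count of other pathway genes higher at 4 d was 14 to 18 with 1 array left out and 9 without run 2. With the run as a replicate block 2 pathway genes were lower at 4 d and 2 higher at 8 h, against 0 and 0. With the title number as a block 1 was higher at 8 h, and 1 probe set of the 4 genes passed at 8 h, against 0. The block changed no other of these counts by over 1.5 times. Signs turned for small or unstable differences. At 8 h RT1-Da was -0.012 with the run as a block and -0.27 to 0.30 with 1 array left out. Over arrays left out RT1-Ba ranged from -0.079 to 0.39 by 1370822_at and from -1.68 to 0.32 by 1377334_at at 8 h, and from -0.61 to 1.58 by 1377334_at and -1.02 to 0.019 by 1392334_at at 4 d. RT1-DMa ranged from -0.016 to 0.42, RT1-DMb from -0.025 to 0.44 and Ackr3 from -0.10 to 0.25 at 8 h, and RT1-Bb from -1.48 to 1.22 at 4 d. RT1-Ba by 1377334_at was -0.76 without run 2 at 4 d. RT1-DMa kept its sign at 4 d, but its log2 difference of 1.03 became 1.21 with a smaller pseudocount and 0.70 with a larger one. With all probe sets of each gene averaged RT1-Bb was 0.31 at 4 d and Creb1 0.0036 at 8 h; that setting gave no value per probe set. The causes were not tested. Low signals limit Ciita and all genes below 100.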

Other observations

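Class II chains were not alone in their spread between arrays of 1 group, and the spread was not confined to the MHC: Grm8, Prss35, Hp, Wnk1 and Calb2 ranked 10, 12, 13, 14 and 17 of 19785 by their residual SD. Hp, the haptoglobin gene, gave 126 on 4 d 3 and 1384 to 3510 on the other 7 arrays. A probe set shared by the class I genes RT1-A2 and RT1-A3 ranked 2, with 46.4 on 4 d 3. RT1-CE5, a class I gene of the same complex, ranked 9 and 11. Its probe set 1371209_at gave 343, 334 and 775 in the controls, 555 and 413 at 8 h, and 527, 894 and 1.20 at 4 d, and 1388255_x_at gave 292, 304 and 663, then 504 and 249.7, then 573, 656 and 2.00. Both were near 0 on 4 d 3 only, the array on which RT1-Bb by 1371065_at and RT1-Ba by 1377334_at were also lowest. These genes were singled out after their values were seen, and no cause was tested.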
